A study of Mus musculus with 8 samples.

Results

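Cxcl1, Cxcl2, Cxcl3, Cxcl5, Ccl2, Ccl3, Ccl4 and Ccl5 are chemokine genes, and their transcripts were followed here in mouse neutrophils. The 8 genes were taken by symbol, as a list of inflammatory chemokines, from 18187 gene symbols in a count table, and 7 of them were among the 13278 genes that passed the filter on low counts; Cxcl5 was not. The table covers bulk RNA sequencing of 3 libraries labelled aOX40 and 5 libraries labelled IgG. The labels call the cells neutrophils, name the B16 melanoma line and describe the tumors as aOX40 or IgG treated. Every library shares that cell type and that tumor line, and the labels give no strain, age, dose, time after treatment or way of isolating the cells. They also do not say whether each library came from its own animal, and the p-values below therefore reflect spread between libraries that may be technical. The design sets neutrophils after aOX40, a label that names the T cell costimulatory receptor OX40, against neutrophils after IgG, in a study titled for the activation of neutrophils by T cell immunotherapy.

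Chemokines are small secreted proteins that steer leukocytes through G protein-coupled receptors. In the mouse the CXC members Cxcl1, Cxcl2, Cxcl3 and Cxcl5 act on the receptor Cxcr2 and draw in neutrophils, while Ccl2 draws in monocytes through Ccr2, and Ccl3, Ccl4 and Ccl5 act on receptors of monocytes, T cells and NK cells, Ccr1 among them for Ccl3 and Ccl5. Neutrophils are themselves a source of several of them, mainly after NF-kB is activated, and short-lived transcripts with AU-rich elements let the supply be shut off quickly.

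Library totals ranged over 69.6 to 73.5 M counts (M, mega) in aOX40 and 52.7 to 63.2 M counts in IgG, so the aOX40 libraries were the deeper ones in this series (exact two-sided permutation p = 0.0357, the smallest that 3 against 5 libraries allow). The 8 chemokines together took 3.31%, 2.02% and 2.43% of all counts in aOX40 replicates 1 to 3, against 2.91%, 3.34%, 2.97%, 4.47% and 2.94% in IgG replicates 2 to 6. Nearly all of it came from 4 genes: Cxcl2 alone made up 58.9% ± 5.06 of the chemokine counts in aOX40 and 60.0% ± 3.70 in IgG (SD, n = 3 and 5), and Cxcl3, Ccl3 and Ccl4 supplied most of the rest. Levels below are CPM, the deposited counts scaled per mega counts of the library with TMM factors. In bulk samples fewer cells of a type and less RNA per cell cannot be told apart.

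The 3 expressed CXC genes are shown first by their promoters, since they are close relatives in 1 gene cluster while Cxcl1 was higher in aOX40 and Cxcl3 lower. Each line gives the 120 plus strand bases that lead up to the RefSeq transcription start in the GRCm38.p6 assembly, at chr5:90891125-90891244 for Cxcl1, chr5:90903779-90903898 for Cxcl2 and chr5:90785981-90786100 for Cxcl3. Capitals mark a match to GGGA and TTTCC with any 1 base between them, a spelling of the NF-kB binding element, which starts 71 bases before the transcription start in Cxcl1, 97 in Cxcl2 and 73 in Cxcl3. The annotations differ most for Cxcl2, which GENCODE starts at chr5:90903871, before the end of the window shown. Its larger distance therefore depends on the start chosen.
Cxcl1: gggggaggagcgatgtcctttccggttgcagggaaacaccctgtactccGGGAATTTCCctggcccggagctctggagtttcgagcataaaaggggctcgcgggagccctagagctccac
Cxcl2: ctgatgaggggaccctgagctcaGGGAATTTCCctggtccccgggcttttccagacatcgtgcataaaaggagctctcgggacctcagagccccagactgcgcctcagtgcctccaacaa
Cxcl3: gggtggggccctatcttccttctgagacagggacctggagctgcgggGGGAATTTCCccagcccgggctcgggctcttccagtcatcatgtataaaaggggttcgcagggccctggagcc
The element is spelled alike in the 3 genes, and on both strands 0.411% of the 32851 RefSeq promoters of 300 bases hold a match. The spelling was chosen after these sequences had been read, and a match is a description of the letters only. Of the 8 genes, 4 had a promoter in the table used, and the window of Ccl3 held no match.

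All 4 CXC genes lie on the plus strand of mouse chromosome 5 (GRCm38), within 147 kb. Cxcl5 (ENSMUSG00000029371.7) spans chr5:90759360-90761624 and Cxcl3 (ENSMUSG00000029379.10) spans chr5:90786103-90789600. Cxcl1 (ENSMUSG00000029380.11) follows at chr5:90891241-90893115, and Cxcl2 (ENSMUSG00000058427.10) begins 10.8 kb after its end, at chr5:90903871-90905938. The coding sequences of Cxcl2 and Cxcl3 were 89.7% identical, and Cxcl1 was 75.7% identical to Cxcl2 and 72.7% to Cxcl3. No gene of the 8 had another transcript at 95% identity or more over at least 50% of its length, so none was treated as a near copy.

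The 8 genes covered a wide span of abundance. Per kilobase of merged exons, Cxcl2 averaged 6497 ± 1791 CPM in aOX40 libraries and 10361 ± 1454 CPM in IgG libraries (SD, n = 3 and 5, here and for the other levels per kilobase), which placed it at rank 9 in aOX40 and rank 7 in IgG of 17669 genes with a length. Ccl4 followed at 5546 ± 2874 CPM per kilobase in aOX40 and 6975 ± 2629 in IgG, and Ccl3 at 3709 ± 1784 in aOX40 and 4661 ± 1049 in IgG. Neutrophils of both groups thus carried these 3 chemokine transcripts among their most abundant messages. Cxcl3 stood at 862 ± 251 CPM per kilobase in aOX40 and 1757 ± 453 in IgG.

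The other 4 genes were lower by more than an order of magnitude. Ccl2 had 33.0 ± 12.7 CPM per kilobase in aOX40 and 30.5 ± 8.35 in IgG, and Cxcl1 had 36.6 ± 21.8 in aOX40 and 6.51 ± 3.16 in IgG. Ccl5, the chemokine RANTES, had 1.88 ± 0.80 CPM per kilobase in aOX40 and 1.77 ± 0.46 in IgG. The order Cxcl2, Ccl4, Ccl3, Cxcl3 held in 6 of 8 libraries; Ccl4 was above Cxcl2 in aOX40 replicate 1, and Ccl3 was above Ccl4 in IgG replicate 2. Within each group the ranges of Cxcl2 and Ccl4 overlapped, as did those of Ccl4 and Ccl3, while Cxcl3 lay below Ccl3 in every library of its group. Cxcl1 and Ccl2 overlapped in aOX40 but not in IgG. Cxcl1 was above Ccl2 per kilobase in 2 of the 3 aOX40 libraries and in 0 of the 5 IgG libraries.

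**Figure D1:**
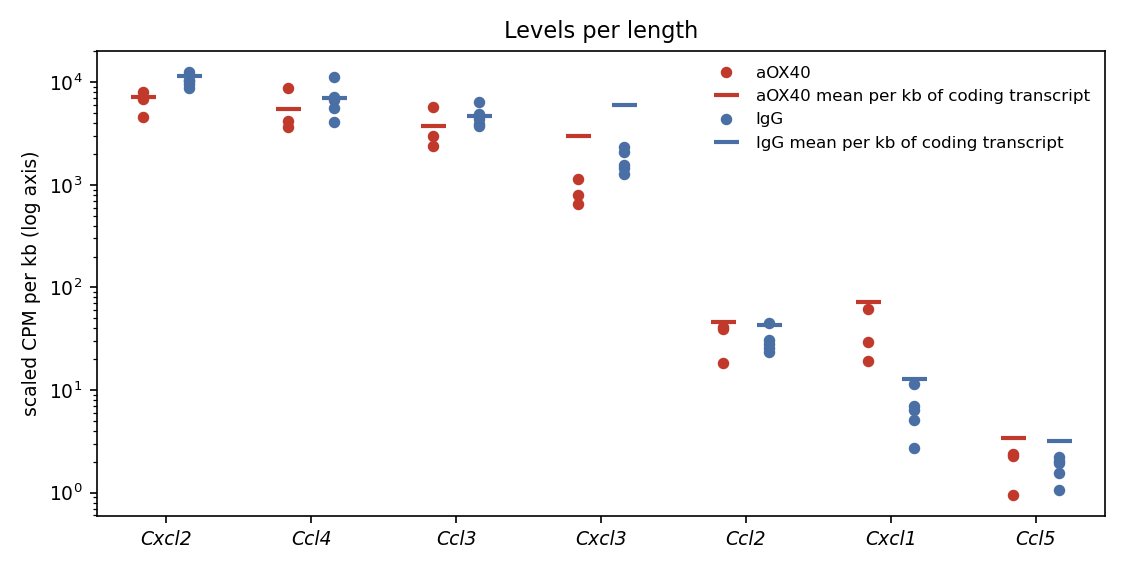
Level of 7 chemokines in CPM per kilobase on a log axis, aOX40 (red) left of IgG (blue); each dot is a library over the length of the merged exons, and each dash is the group mean over the length of the longest coding transcript. Cxcl2, Ccl4 and Ccl3 sit at the top, Ccl5 at the bottom, and the dashes of Cxcl3 lie well above its dots.

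The place of Cxcl3 depended on which length was used. Its merged exons cover 3498 bases, but its longest coding transcript has 1016 bases, and over that length it stood at 2968 ± 866 CPM per kilobase in aOX40 and 6048 ± 1561 in IgG (SD, n = 3 and 5), a range that overlapped those of Ccl3 and Ccl4.

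Of the 7 chemokines tested, 2 passed the threshold of an adjusted p of 0.05 (edgeR quasi-likelihood test), 1 higher and 1 lower, against 5.65% of all genes tested in either direction. The background was 2.64% of all genes for higher in aOX40 and 3% for lower, so 46.8% of all calls were higher; with total counts alone in place of TMM that share was 78.0%, and the all-gene median was 0.35 on the log2 scale. The groups did not overlap in 3 of the 7 chemokines, against 16% of all genes tested. The median log2 fold change was -0.33 over the 7 chemokines and 0.05 over all genes tested. The list was drawn up with earlier results of these libraries known, so its share of calls is not independent evidence.

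**Figure D2:**
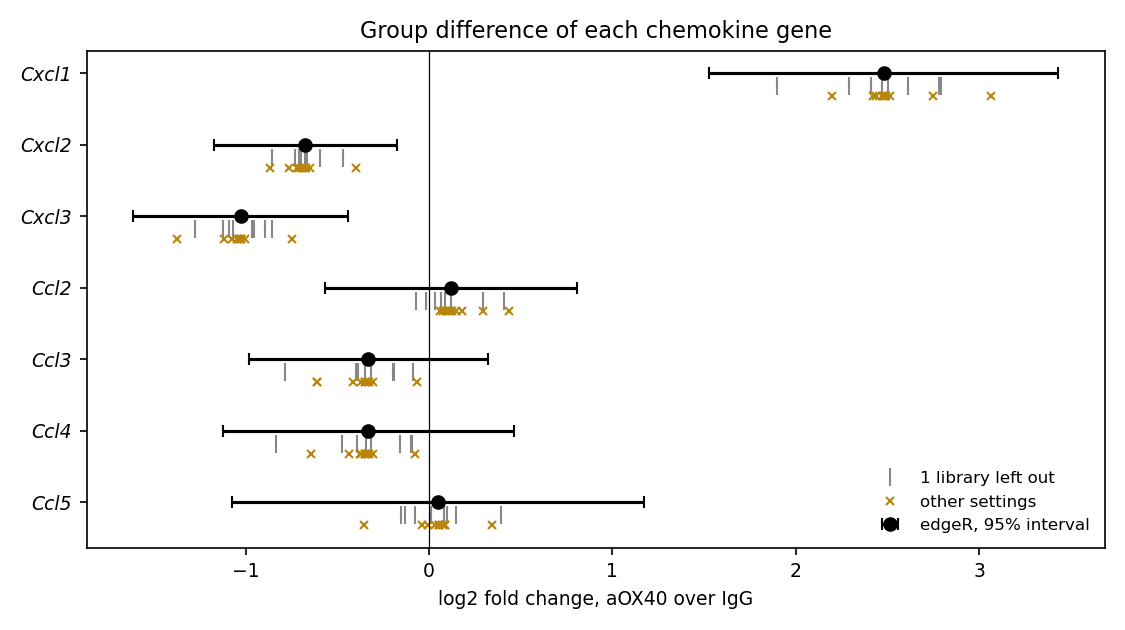
Log2 fold change (aOX40 over IgG) of the 7 chemokines tested, with black points and bars for the edgeR estimate and its 95% interval, grey ticks for fits with 1 library left out and crosses for the other settings. Cxcl1 lies at 2.48, Cxcl3 at -1.03 and Cxcl2 at -0.67 with intervals that leave out 0, and the intervals of Ccl2, Ccl3, Ccl4 and Ccl5 include it.

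Cxcl1, known as KC and a strong Cxcr2 ligand, was the 1 chemokine of the list that rose. It had 55.6, 35.9 and 115 CPM in aOX40 replicates 1 to 3, and 5.11, 11.9, 9.58, 13.1 and 21.3 CPM in IgG replicates 2 to 6. Every aOX40 library was above every IgG library, with replicate 3 the highest of aOX40 and replicate 6 the highest of IgG. The mean was 68.7 ± 41.0 CPM in aOX40 and 12.2 ± 5.93 CPM in IgG (SD, n = 3 and 5), a fold of 5.58 (95% interval 2.88 to 10.8; log2 fold change 2.48, SE 0.43, edgeR quasi-likelihood test with Benjamini-Hochberg adjustment over all genes tested, adjusted p = 0.0153). Without aOX40 replicate 2 the adjusted p of the edgeR test was 0.0558, and without aOX40 replicate 3 it was 0.0691.

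Cxcl3, in the mouse a Cxcr2 ligand described first as a dendritic cell product, went the other way. It had 3987, 2274 and 2785 CPM in aOX40 replicates 1 to 3, and 8265, 5158, 5449, 7341 and 4509 CPM in IgG replicates 2 to 6. The groups did not overlap: the highest aOX40 library lay below the lowest IgG library. The mean was 3015 ± 880 CPM in aOX40 and 6144 ± 1586 CPM in IgG (SD, n = 3 and 5), and the transcript fell by 1.03 on the log2 scale (SE 0.27, 95% interval -1.61 to -0.44, edgeR quasi-likelihood test, adjusted p = 0.0490). The call lies at the threshold: it was lost in 7 of 8 fits that left out a library (all but the one without aOX40 replicate 1), with log2 fold changes between -1.28 and -0.86 and an edgeR adjusted p up to 0.207. Over all 18 alternatives it was lost in 11, with log2 fold changes between -1.38 and -0.75 and an adjusted p up to 0.238 in edgeR.

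Cxcl2, known as MIP-2, was the most abundant of the chemokines. It had 16682, 9403 and 14222 CPM in aOX40 replicates 1 to 3, and 18011, 21421, 21772, 26098 and 19834 CPM in IgG replicates 2 to 6. Here too no aOX40 library reached the lowest IgG library, and aOX40 replicate 2 lay lowest. The mean was 13436 ± 3703 CPM in aOX40 and 21427 ± 3006 CPM in IgG (SD, n = 3 and 5), but with a log2 fold change of -0.67 (SE 0.23, 95% interval -1.17 to -0.18) it did not pass the test over all genes (edgeR quasi-likelihood test, adjusted p = 0.1001). Before scaling, Cxcl2 took 1.78%, 1.19% and 1.55% of the counts in aOX40 replicates 1 to 3, and 1.62%, 2.11%, 1.90%, 2.55% and 1.77% in IgG replicates 2 to 6, so that the unscaled shares overlapped.

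Cxcl5, known as LIX and in other tissues mainly a product of epithelial and stromal cells, was nearly absent from the table. It had 40 counts in aOX40 replicate 3, which is 0.499 CPM, and 0 counts in the other 2 aOX40 libraries and in all 5 IgG libraries. A count of 0 allows up to 3 counts, which is between 0.0337 and 0.0404 CPM in the aOX40 libraries and between 0.0489 and 0.0616 CPM in the IgG libraries, for counting error only. No fold was computed.

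**Figure D3:**
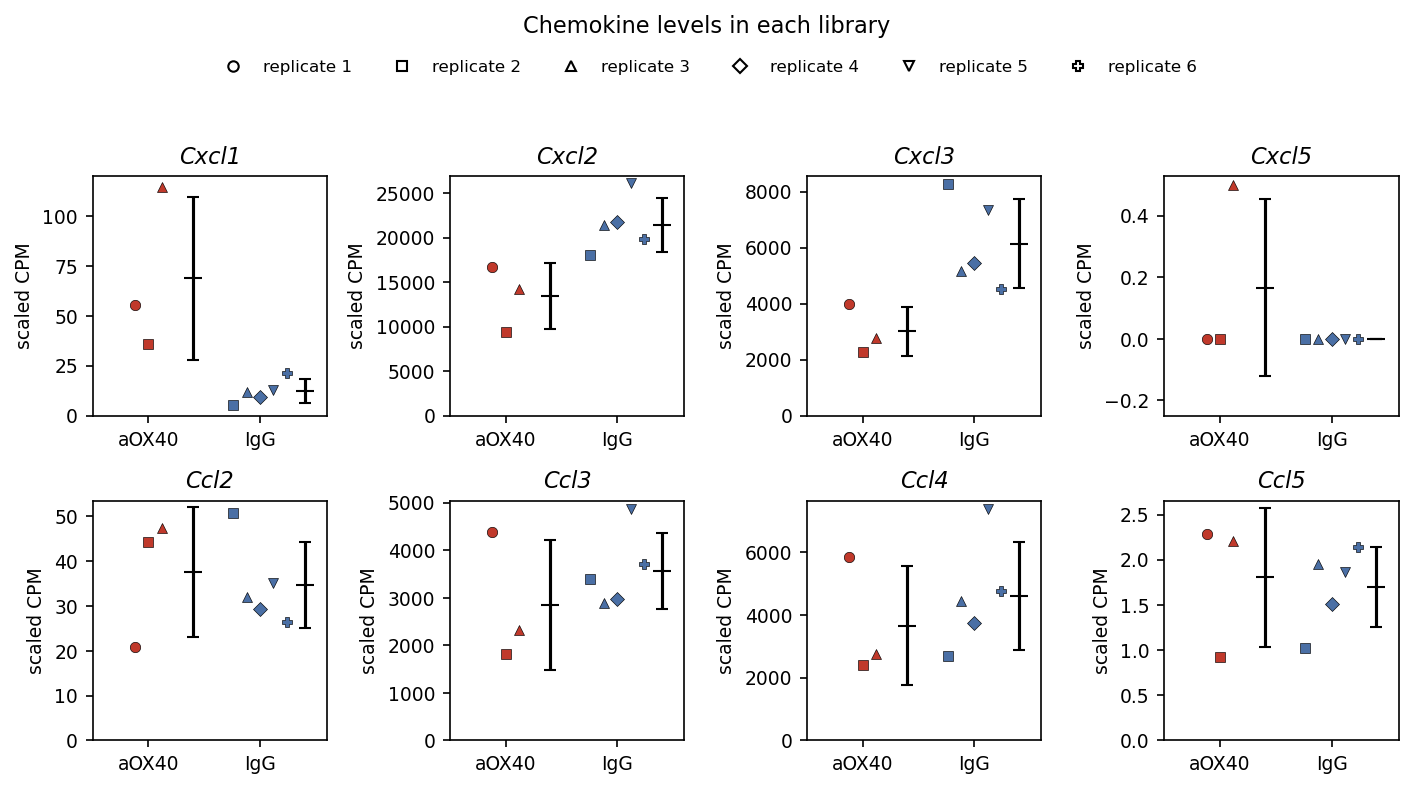
CPM of each of the 8 chemokines, 1 panel per gene on a linear axis, with 1 symbol per library shaped by its replicate number, aOX40 left of IgG, and the group mean with its SD to the right of the symbols. The aOX40 libraries lie above all IgG libraries for Cxcl1 and below all of them for Cxcl2 and Cxcl3, the groups overlap for Ccl2, Ccl3, Ccl4 and Ccl5, and Cxcl5 is above 0 in 1 library.

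Ratios within a library do not depend on the scaling between libraries, and they set Cxcl1 apart from Cxcl2 and Cxcl3. Compared with any IgG library, every aOX40 library had more Cxcl1 and less Cxcl2 and Cxcl3. The gaps in the 2 ratios with Cxcl1 follow from those levels and are not further evidence. The ratio of Cxcl1 to Cxcl2 counts lay between 0.00333 and 0.00806 in aOX40 and between 0.000284 and 0.00107 in IgG, a difference of 3.17 in mean log2 ratio. The ratio of Cxcl1 to Cxcl3 lay between 0.0139 and 0.0412 in aOX40 and between 0.000618 and 0.00472 in IgG, a difference of 3.50. Neither pair of ranges overlapped, yet Cxcl1 made up only 0.307% ± 0.182 of the chemokine counts in aOX40 and 0.0345% ± 0.0183 in IgG (SD, n = 3 and 5). The ratio of Cxcl3 to Cxcl2 lay between 0.196 and 0.242 in aOX40 and between 0.227 and 0.459 in IgG, and these ranges overlapped, with IgG replicate 2 far above the other IgG libraries.

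**Figure D4:**
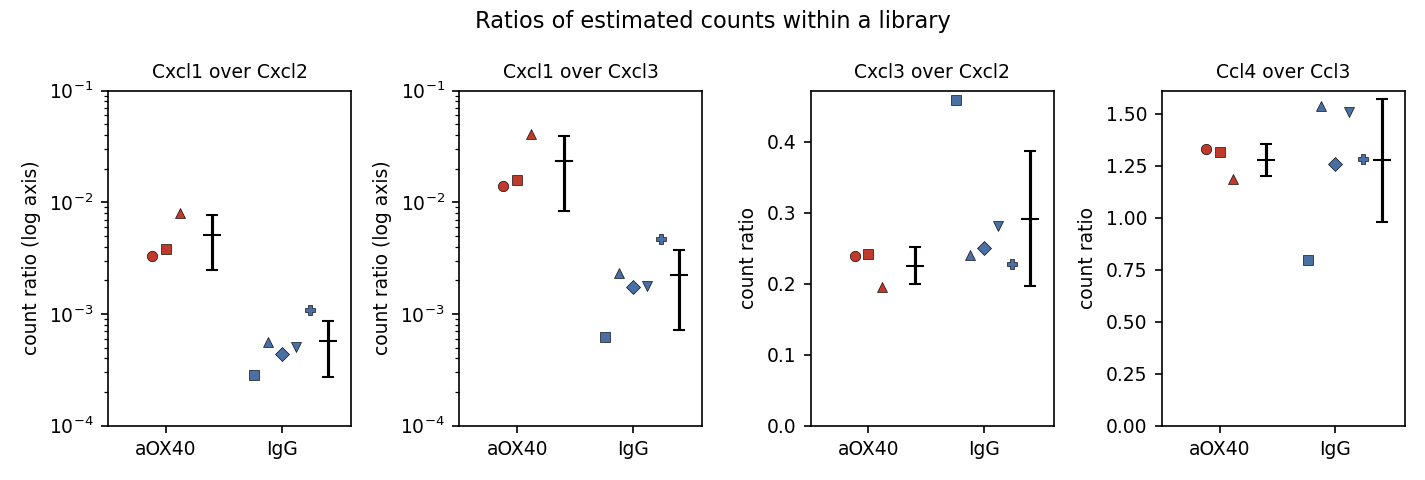
Ratios of counts within a library for 4 pairs of chemokines, on log axes for the pairs with Cxcl1 and linear axes for the others, with 1 symbol per library shaped by its replicate number, aOX40 left of IgG, and the group mean with its SD beside them. Both ratios with Cxcl1 lie higher in every aOX40 library than in any IgG library, and the ranges overlap in the other panels.

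The CC genes lie on mouse chromosome 11 (GRCm38), where Ccl2 (ENSMUSG00000035385.5, plus strand) spans chr11:82035571-82037453 and Ccl5 (ENSMUSG00000035042.2, minus strand) spans chr11:83525778-83530518. Ccl3 (ENSMUSG00000000982.5, minus strand) spans chr11:83647844-83649355, and Ccl4 (ENSMUSG00000018930.3, plus strand) starts 13.2 kb further on and spans chr11:83662584-83664683. The annotation places the gene model Gm17268 on the opposite strand over Ccl2, and without a stated strand setting reads of both genes could not be told apart.

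Of the 4 CC genes of the list, 0 passed the test, also at an unadjusted p under 0.05 and with DESeq2, and in each of them the groups overlapped. Ccl3, known as MIP-1 alpha, had 4393, 1818 and 2313 CPM in aOX40 replicates 1 to 3, against 3389, 2888, 2976, 4877 and 3720 CPM in IgG replicates 2 to 6. Its log2 fold change was -0.33 (95% interval -0.98 to 0.32, edgeR quasi-likelihood test, adjusted p = 0.528). Ccl4, known as MIP-1 beta, had 5841, 2392 and 2747 CPM in aOX40 replicates 1 to 3, against 2702, 4438, 3742, 7366 and 4769 CPM in IgG replicates 2 to 6. Both genes were highest in replicate 1 among the aOX40 libraries and in replicate 5 among the IgG libraries. Ccl4 had a log2 fold change of -0.33 (95% interval -1.12 to 0.46, edgeR quasi-likelihood test, adjusted p = 0.616), and the ratio of Ccl4 to Ccl3 lay between 1.19 and 1.33 in aOX40 and between 0.797 and 1.54 in IgG.

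Ccl2, known as MCP-1, lay between 20.9 and 47.4 CPM in aOX40 and between 26.4 and 50.7 CPM in IgG, with a log2 fold change of 0.12 (95% interval -0.57 to 0.80, edgeR quasi-likelihood test, adjusted p = 0.853). Within aOX40 it was lowest in replicate 1, the library in which Ccl3 and Ccl4 were highest. Ccl5 stayed between 0.920 and 2.29 CPM in aOX40 and between 1.03 and 2.14 CPM in IgG, with a log2 fold change of 0.05 (95% interval -1.07 to 1.17, edgeR quasi-likelihood test, adjusted p = 0.967). These intervals still allow changes of 1.5-fold or more in each CC gene, so they do not show equal levels.

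The chemokines differed in how far the libraries of a group spread. Cxcl1 spanned 3.19-fold between its lowest and highest library in aOX40 and 4.15-fold in IgG, and its pooled SD within groups was 0.78 on the log2 scale. Cxcl2 spanned 1.77-fold in aOX40 and 1.45-fold in IgG, with a pooled SD of 0.29, the smallest of the 7. The other 5 had pooled SDs between 0.38 and 0.59, and the median over all genes tested was 0.70. The chemokines other than Cxcl1, the scarce Ccl2 and Ccl5 included, thus spread less than the median gene, and Cxcl1 slightly more. That median covers genes of every level, not genes of like abundance.

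The 3′ untranslated regions of the list hold another difference between its members. The heptamer TATTTAT, the core of the AU-rich element that the decay factor tristetraprolin (gene Zfp36) binds in RNA, was counted on the sense strand in the longest annotated 3′ region of each gene, with overlapping matches counted. The first match of Cxcl1, Cxcl2 and Cxcl3 is shown with its flanks, with only that first heptamer in capitals. In Cxcl1 and Cxcl2 a further match overlaps it and runs on in lower case, while the stretch of Cxcl3 holds no further match.
Cxcl1: tttgagggtccTATTTATttatgtattta
Cxcl2: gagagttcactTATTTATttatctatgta
Cxcl3: ttatcagttgtTATTTATtgaaatggtct
Cxcl1 had 6 matches in 592 bases and Cxcl2 had 7 in 1494 bases, against 2 in 645 bases of Cxcl3. Among tested genes with a 3′ region within 25% of the same length, 0.0809% had at least as many as Cxcl1, 0.111% as many as Cxcl2 and 3.79% as many as Cxcl3, each gene itself included. Ccl3, Ccl4 and Cxcl5 had 1 match each, Ccl2 and Ccl5 had 0, and 29.6% of 9736 tested genes had at least 1.

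Zfp36 itself fell to 3220 ± 1002 CPM in aOX40, against 7469 ± 2308 CPM in IgG (SD, n = 3 and 5; log2 fold change -1.21, SE 0.30, edgeR quasi-likelihood test, adjusted p = 0.0412). This call was lost in 7 of 8 fits that left out a library, all but the one without IgG replicate 2. Of 14 mRNA decay factors tested, it was the 1 lower gene and 0 were higher, against 3% lower and 2.64% higher of all genes tested. The median log2 fold change of the list was -0.17, against 0.05 over all genes.

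Among the receptors of the 8 chemokines, 0 of 7 tested passed the threshold in either direction (edgeR quasi-likelihood test), against 5.65% of all genes tested. In that test 3 receptors had an unadjusted p under 0.05, as did 3287 of all 13278 genes. DESeq2 called 1 receptor, Ccr1, as lower (adjusted p = 0.00355). The median log2 fold change of the receptors was -0.13. Cxcr2, the receptor of the CXC members and a defining neutrophil receptor, averaged 1123 ± 186 CPM in aOX40 libraries and 1131 ± 159 CPM in IgG libraries (SD, n = 3 and 5). Ccr1, a receptor of Ccl3 and Ccl5, averaged 4151 ± 319 CPM in aOX40 libraries and 6329 ± 899 CPM in IgG libraries without overlap (with a log2 fold change of -0.61, SE 0.18, edgeR quasi-likelihood test, adjusted p = 0.0732). Ccrl2, an atypical receptor that does not signal for migration, averaged 2617 ± 1217 CPM in aOX40 libraries and 2861 ± 675 CPM in IgG libraries. Other receptors were low. Cxcr1 averaged 21.7 CPM in aOX40 and 37.5 CPM in IgG, and Ccr3, an eosinophil receptor that binds Ccl5, 5.08 CPM in aOX40 and 9.63 CPM in IgG. Ccr2, the receptor of Ccl2, averaged 2.93 CPM in aOX40 and 0.818 CPM in IgG.

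The genes beside the members in the same clusters were mostly low. Ppbp and Pf4, platelet chemokines that lie between Cxcl5 and Cxcl3, were below 3 CPM on average in both groups. Cxcl15, known in the mouse as lungkine and placed between Cxcl3 and Cxcl1, fell to 0.288 ± 0.153 CPM in aOX40, against 2.49 ± 1.45 CPM in IgG (SD, n = 3 and 5; log2 fold change -3.17, SE 0.75, edgeR quasi-likelihood test, adjusted p = 0.0302), and the call was lost without any 1 of the aOX40 libraries. The exception in abundance was Ccl6, which lies between Ccl5 and Ccl3 and is a mouse chemokine of myeloid cells, with a mean of 2953 ± 1595 CPM in aOX40 libraries and 8199 ± 3313 CPM in IgG libraries (log2 fold change -1.47, SE 0.39, edgeR quasi-likelihood test, adjusted p = 0.0522). Its neighbour Ccl9 had 90.2 ± 42.0 CPM in aOX40 libraries and 107 ± 38.6 CPM in IgG libraries. Over all 13 other chemokine genes tested, 0 passed the threshold as higher and 1, Cxcl15, as lower, against 2.64% and 3% of all genes tested. In this list 12 had a log2 fold change below 0, and the median was -1.47, against 0.05 over all genes. Much of that rests on low counts: Ppbp, Pf4, Cxcl15, Ccl8, Ccl24, Ccl25 and Ccl27a averaged below 3 CPM in both groups. The Cxcl15 call was also lost in both limma voom fits, in the replicate block and with trended dispersions. Ccl6 was called lower in some other fits, among them DESeq2 and limma voom without and with quality weights (adjusted p = 0.0445 and 0.0180 in the voom fits).

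**Figure D5:**
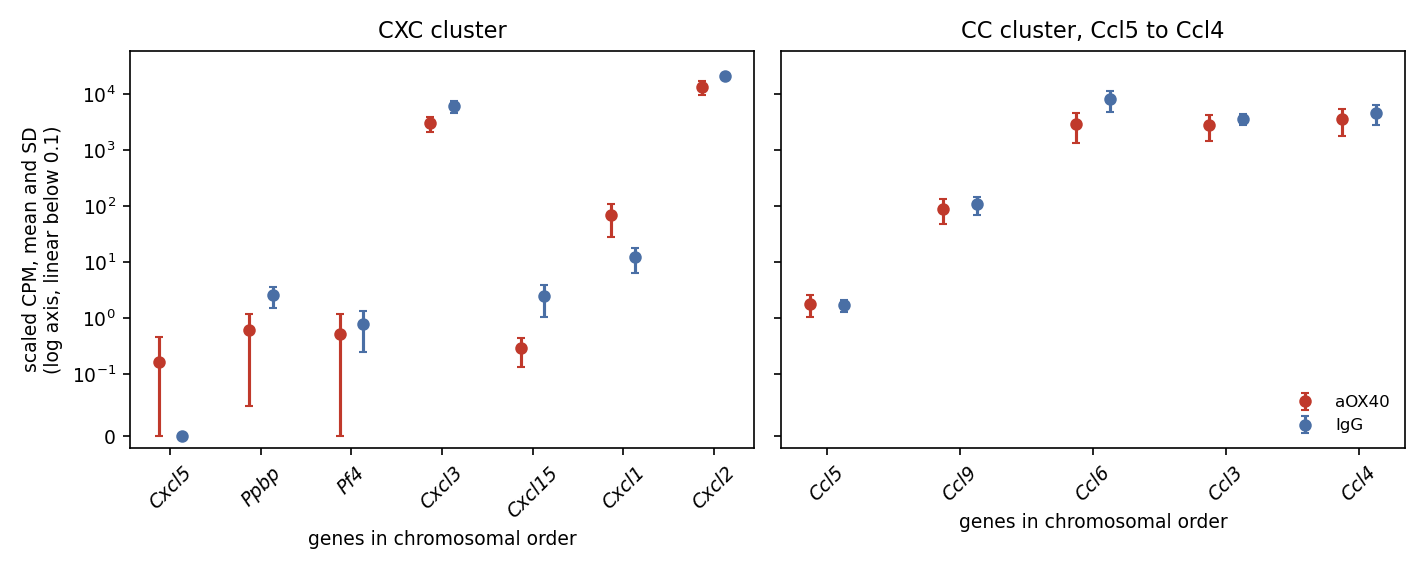
Mean CPM with SD of the genes in the CXC cluster on chromosome 5 and in the Ccl5 to Ccl4 stretch on chromosome 11, in chromosomal order on a log axis that turns linear below 0.1, aOX40 (red) left of IgG (blue). Cxcl1 is higher in aOX40 while its neighbours Cxcl15 and Cxcl2 have lower means there, and Ccl6 also has a lower mean in aOX40. These CPM are not divided by gene length, so the heights of different genes are not compared.

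Among upstream genes of the NF-kB route, which switches on these chemokines, a few passed the test. Of 26 tested inputs and brakes, 2 rose and 1 fell (edgeR quasi-likelihood test), against 2.64% higher and 3% lower of all genes tested. In this list 19 had a log2 fold change above 0, and the median was 0.46, against 0.05 over all genes. The split of calls was 6 higher and 0 lower with total counts alone in place of TMM, 6 higher and 1 lower when every library had to hold 10 counts of a gene, and 6 higher and 2 lower with DESeq2. Over all genes, 78.0%, 41.0% and 34.7% of the calls were higher in those fits, in the same order. Irak3, known as IRAK-M and a brake on Toll-like receptor and interleukin 1 signalling, rose to 187 ± 15.5 CPM in aOX40, against 43.4 ± 13.9 CPM in IgG (SD, n = 3 and 5; log2 fold change 2.10, SE 0.26, edgeR adjusted p = 0.00815). That call was lost without aOX40 replicate 2. Tnip1, an inhibitor of NF-kB that works with A20, rose to 85.1 ± 22.8 CPM in aOX40, against 41.5 ± 8.49 CPM in IgG (log2 fold change 1.03, SE 0.24, edgeR adjusted p = 0.0369). Irak2, a kinase of the same receptors, fell to 294 ± 29.2 CPM in aOX40, against 536 ± 86.3 CPM in IgG (log2 fold change -0.87, SE 0.19, edgeR adjusted p = 0.0312). The Tnip1 call was lost in 9 of 18 alternative fits, among them those without any 1 aOX40 library or without IgG replicate 2, 3 or 4. The Irak2 call was lost in 7 of 18, among them those without any 1 aOX40 library or without IgG replicate 3 or 6.

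The cytokine genes Tnf and Il1b, which signal to the same route, and the inhibitor gene Nfkbia did not pass; these 3 were picked after their values were seen. Tnf averaged 404 ± 112 CPM in aOX40 libraries and 137 ± 68.0 CPM in IgG libraries without overlap (SD, n = 3 and 5). Its log2 fold change was 1.56 (edgeR quasi-likelihood test, adjusted p = 0.0705). DESeq2 called it, as did edgeR with total counts alone, with at least 10 counts in all libraries and without IgG replicate 2. The other alternatives did not call it. Il1b averaged 12035 ± 3488 CPM in aOX40 libraries and 14959 ± 4436 CPM in IgG libraries (edgeR adjusted p = 0.521). Nfkbia, which encodes I kappa B alpha, averaged 4273 CPM in aOX40 libraries and 3057 CPM in IgG libraries (edgeR adjusted p = 0.424).

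The genes whose pattern over the 8 libraries was most like each chemokine were found by the root mean square difference of log2 CPM centred on its mean, over 4560 genes with a mean of at least 10 CPM. For Cxcl1 the nearest genes were Psmd3 at 0.55, Topors at 0.60 and Irak3 at 0.62. This distance grows with how far a gene moves between libraries, and Cxcl1 moved the most of the chemokines. Its larger distances therefore cannot show whether another gene shared its pattern over a smaller range. For Cxcl2 they included Eif1 at 0.15 and Gtf2a2 at 0.15, and for Cxcl3 Rybp at 0.11, Gab2 at 0.11 and Rpl23 at 0.14. Ccl3 was nearest to Tmem258 at 0.07, Fcer1g at 0.12 and Sem1 at 0.14, and Ccl4 to Map3k1 at 0.20, Cks2 at 0.21 and Prpf4b at 0.22. For Ccl2 the nearest genes were Hnrnpu at 0.16, Pram1 at 0.17 and Cap1 at 0.18, and for Ccl5 they included Arid3b at 0.21 and Lrrc25 at 0.25. Among the chemokines themselves the closest of 21 pairs was Ccl3 with Ccl4 at 0.27, followed by Cxcl2 with Ccl3 at 0.29 and Cxcl2 with Cxcl3 at 0.34. The 6 pairs with Cxcl1 lay between 1.24 and 1.90, and the other 15 reached at most 0.89, a gap that its large fold change brings with it.

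Several of these chemokines are also made by macrophages, stromal cells and tumor cells, so markers of other cell types were read in the same libraries. The summed level of the neutrophil markers, 19 of 20 in the table, lay between 28131 and 38042 CPM in aOX40 and between 23703 and 38499 CPM in IgG, led by S100a9 and S100a8. The macrophage and monocyte markers, of which 13 of 15 were in the table, summed to between 1087 and 1529 CPM in aOX40 and between 1406 and 2039 CPM in IgG, mostly Cd68 and Ly6c2, while Mertk and Ms4a7 stayed below 1 CPM in every library. T cell markers summed to between 0.923 and 4.62 CPM in aOX40 and between 1.54 and 6.94 CPM in IgG, and NK cell markers to at most 1.13 CPM in aOX40 and 2.46 CPM in IgG. Melanoma markers summed to between 4.59 and 9.07 CPM in aOX40 and between 5.77 and 15.4 CPM in IgG. The neutrophil label was thus met by its markers.

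These sums are carried by their most abundant genes, and single neutrophil and macrophage markers, picked here after their values were seen, differed between the groups. Of 18 neutrophil markers tested, 3 rose and 0 fell (edgeR quasi-likelihood test), against 2.64% higher and 3% lower of all genes tested. Mmp8, a collagenase of neutrophil granules, rose to 1093 ± 543 CPM in aOX40, against 479 ± 111 CPM in IgG (SD, n = 3 and 5; log2 fold change 1.19, edgeR adjusted p = 0.0443). Mmp9, the granule gelatinase, had a log2 fold change of 1.28 (edgeR adjusted p = 0.0467), and Cd177, a neutrophil surface protein, one of 1.34 (edgeR adjusted p = 0.0414). Each of these 3 calls was lost without aOX40 replicate 2 or 3 and without IgG replicate 2, 3 or 6, at least 1 of them also without IgG replicate 4 or 5, and each in 10 to 12 of 18 alternatives in all. Of 11 macrophage and monocyte markers tested, 1 rose and 1 fell (edgeR quasi-likelihood test), beside the same shares of 2.64% and 3% over all genes. Adgre1, which encodes F4/80, rose to 21.6 ± 6.37 CPM in aOX40, against 6.12 ± 2.62 CPM in IgG (log2 fold change 1.81, edgeR adjusted p = 0.0248), and the call was lost without aOX40 replicate 2 or 3. Cd68, a lysosomal protein, fell to 639 ± 208 CPM in aOX40, against 1272 ± 168 CPM in IgG (log2 fold change -0.99, edgeR adjusted p = 0.0362), and the call was lost with total counts alone and without aOX40 replicate 2 or 3 or IgG replicate 2, 4, 5 or 6. Csf1r, the receptor of macrophage growth factor, averaged 51.2 ± 21.2 CPM in aOX40 libraries and 17.5 ± 8.26 CPM in IgG libraries without overlap (edgeR adjusted p = 0.0546). Of these picked markers, Mmp8, Mmp9, Cd177, Adgre1 and Csf1r lay in the direction of Cxcl1, and Cd68 in that of Cxcl2 and Cxcl3. Neither list moved as a whole, and its other tested markers lay in either direction without a call. Among neutrophil markers, Camp had a log2 fold change of -1.14, Stfa2l1 of -0.70 and Csf3r of -0.35. Among macrophage and monocyte markers, Fcgr1 had -0.49 and Apoe 0.02. The part of any marker in the chemokine differences was not tested.

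Of 11 marker lists, 3 had sums that did not overlap between the groups, all lower in aOX40, while 16% of all single genes tested did not overlap. Each of these sums was led by 1 gene, which does not show a change in the number of those cells. Flt3 and Zbtb46 of the dendritic cell list, Lum of the fibroblast list, and Gp9 and Gp1ba of the platelet list stayed below 1 CPM in every library. Dendritic cell markers, mostly Itgax and 5 of 8 in the table, summed to between 11.3 and 20.2 CPM in aOX40 and between 22.5 and 41.0 CPM in IgG. Fibroblast markers, mostly Col1a1 and 5 of 8 in the table, summed to between 1.22 and 4.87 CPM in aOX40 and between 5.71 and 32.4 CPM in IgG. Platelet markers, mostly Itgb3 and all 6 in the table, summed to between 2.67 and 7.17 CPM in aOX40 and between 21.1 and 39.1 CPM in IgG. For each of the 3 the exact two-sided permutation test gave p = 0.0357, or 0.131 after Benjamini-Hochberg adjustment over the 11 lists. These lists lay in the direction of Cxcl2 and Cxcl3 and opposite to Cxcl1, and their part in those differences was not tested. Endothelial markers summed to between 3.87 and 9.57 CPM in aOX40 and between 7.05 and 27.5 CPM in IgG, B cell markers, nearly all Ighm, to between 65.1 and 77.7 CPM in aOX40 and between 30.1 and 251 CPM in IgG, and the 1 mast cell marker in the table, Kit, stayed below 1 CPM.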

How the data were processed

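Bulk RNA sequencing of mouse neutrophils was read from 1 deposited table of unscaled estimated counts per gene symbol. STAR 2.6.0, Subread and featureCounts 1.5.1 were used with the build mm10, per the submitters' processing notes; settings, annotation and strand: not given in the sources used here. A share of 63.4% of the deposited values was whole within 0.01, and the largest are printed rounded. Groups and replicate numbers came from the sample titles, and columns were matched by the sample name in the labels.

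Estimated counts were rounded, filtered with filterByExpr by group and scaled with TMM. aOX40 was compared with IgG with edgeR 4.0.16 in R 4.3.3 (quasi-likelihood F test, group as the only term) and Benjamini-Hochberg adjustment over 13278 genes at a threshold of 0.05. Adjusted deviances were used (legacy=FALSE); the tool's default with trended dispersions was run too, both were seen before the choice, and the closing section gives its effect. Standard errors came from the F statistic, and intervals of 95% from the t distribution with the model's degrees of freedom. Single values were compared by an exact two-sided permutation test over 56 splits.

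Other scalings, filters, DESeq2 1.42.0, limma voom (limma 3.58.1), a replicate block and each library left out were tried. The procedure was also run on simulated data with 200 changed genes. It recovered 30% of the 2-fold and 84% of the 4-fold changes there, and 8.24% of its calls were false. Lengths, positions and 3′ regions came from GENCODE M21 (GRCm38), and promoters from RefSeq (GRCm38.p6). The 8 chemokines and every gene list were chosen with earlier results of these data known. The genes named were the 8 chemokines, the genes between them in their clusters, their receptors that passed the filter, up to 4 members of each list that passed the threshold, the 3 genes most like each chemokine, and markers that make up most of a sum. A few genes that this rule takes are not reported here.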

Additional observations from a re-analysis of the deposited data

Results flagged for a closer look

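Of 64 results searched, 7 had 1 IgG library far from the other 4, with a gap of more than 0.71 of the group's range. In normally distributed values chance gives such a gap in about 1 of 20 groups, and low marker sums need not follow that rate. IgG replicate 2 stood apart in 4 of the 7, and those from chemokine counts share values, so they are not separate. Its ratio of Cxcl3 to Cxcl2 counts was 0.459, against 0.227 to 0.281 in the other IgG libraries, and Cxcl3 made up 25.5% of its chemokine counts, against 13.7% to 16.1%. Ccl2 made up 0.156% of its chemokine counts, against 0.0767% to 0.0943% in the other IgG libraries, and Irak2 stood at 686 CPM, against 472 to 518 CPM. IgG replicate 4 had an NK cell marker sum of 2.46 CPM, against at most 0.587 CPM in the others, and a mast cell marker sum of 0.744 CPM, against at most 0.0489 CPM. In IgG replicate 5 the 8 chemokines took 4.47% of all counts, against 2.91% to 3.34% in the other IgG libraries. Groups of 3 libraries, such as aOX40, were not searched.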

How the results depend on the processing

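Cxcl1 kept its direction in all 18 alternatives and its call in 15, and Ccl3 and Ccl4 stayed below 0 without a call in all 18. With total counts alone in place of TMM, Cxcl3 had a log2 fold change of -0.75 (edgeR adjusted p = 0.0764), 1 of the 7 chemokines and 6 NF-kB genes passed, and the dendritic cell marker sum differed by -11.8 CPM (exact permutation p = 0.143). Without a filter on low counts, 452 genes and 1 chemokine passed, and Cxcl3, at -1.03, had an adjusted p of 0.0504, in a fit with more genes tested. With at least 10 counts required in all libraries, 7 NF-kB genes and 3 other chemokines passed. DESeq2 called 1457 genes, among them Cxcl2 (-0.69), 8 NF-kB genes, 2 other chemokines, 2 decay factors and 1 receptor. Limma voom called 1 receptor, and with quality weights 1305 genes, Cxcl2 (-0.87), 5 NF-kB genes and 1 receptor. Trended dispersions in edgeR, added after the data were seen, gave 320 genes, 1 chemokine and 0 other chemokines or decay factors, with Cxcl3 at -1.03 and an adjusted p of 0.0863. Ccl5 changed sign with upper quartile scaling (-0.0036), voom (-0.036) and quality weights (-0.35). The groups share only the replicate numbers 2 and 3. Deviations of the libraries with a shared number correlated at 0.0224 and 0.0469, which cannot show whether the libraries are paired. As a replicate block in edgeR the numbers gave 0 genes in every list and over all genes. There 2594 genes had an unadjusted p under 0.05, with Cxcl1 at 3.06 and Cxcl3 at -1.38. Only numbers 2 and 3 compare the groups in that fit, so little is left to estimate spread from. The block is 1 of the 18 alternatives, and calls lost in it say little about the groups. With 1 library left out, between 0 and 589 genes passed, the 0 without aOX40 replicate 2, where 2230 had an unadjusted p under 0.05. The same fits gave 0 to 2 of the 7 chemokines, 0 to 3 NF-kB genes, 0 to 2 other chemokines and 0 to 1 decay factors, and log2 fold changes of 1.90 to 2.79 for Cxcl1, -1.28 to -0.86 for Cxcl3, -0.071 to 0.41 for Ccl2 and -0.15 to 0.39 for Ccl5. Marker sums (aOX40 minus IgG, CPM) then differed by -19.1 to -14.1 for dendritic cells, -16.3 to -9.65 for fibroblasts, -27.6 to -23.1 for platelets, -605 to 4350.4 for neutrophils, -0.722 to 0.0881 for NK cells and -0.153 to 0.0747 for mast cells, in designs whose smallest permutation p is above 0.05. The cause of these shifts was not tested. At this depth and spread Cxcl5 gave no test, and changes of the CC genes within their intervals were not excluded.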
